A study of Drosophila melanogaster with 8 samples.

Results

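Insects coat their cuticle with long hydrocarbons that limit water loss and serve as contact pheromones. In Drosophila melanogaster these are made in oenocytes, secretory cells beneath the abdominal cuticle. Acetyl-CoA is carboxylated, built into fatty acids, desaturated, elongated and reduced to an aldehyde, and a cytochrome P450 then removes the terminal carbon to give the hydrocarbon. The 8 genes described here were chosen by name from the 14865 genes of the count table to cover these steps: ACC, FASN1, FASN2, Desat1, bond, eloF, Cyp4g1 and Cpr. All 8 passed the filter on low counts. The level of Cyp4g1, the most abundant gene of every library, was known when the genes were chosen, so its rank is a description only.

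The libraries, 3 from DHR39 mutants and 5 from controls, hold poly(A) RNA of whole flies and were made with a stranded kit. DHR39, whose gene symbol is Hr39, is a nuclear receptor. The deposited sample sheet names the genotypes DHR393.48 for the mutants and w1118 for the controls. Both groups were 8 days old as adults and were fed 8% yeast and 9% sugar, and the control libraries are marked as re-used. Neither the lesion of the allele nor the sex of the animals is given in the labels. No matched genetic background is named for the mutants, so other differences between the stocks cannot be told apart from the mutation. Words such as fell and rose below compare the groups only. By its title, the study asked how DHR39 regulates male fertility and the genes of the accessory gland. Separate cultures are not recorded for the replicates. The p-values therefore cover the spread between these libraries alone, which may be technical.

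Total counts ran from 16072497 to 19935574 per library. Levels below are CPM, counts relative to the TMM-scaled library total, as mean ± SD over 3 DHR39 and 5 control libraries. A log2 fold change is given with its SE from edgeR's quasi-likelihood test and is positive where DHR39 was higher, and a gene was called at a Benjamini-Hochberg adjusted p under 0.05 over all 13506 tested genes. Hr39 itself was at 27.0 ± 2.89 CPM in DHR39 and 36.2 ± 2.38 CPM in controls, a log2 fold change of -0.42 ± 0.10 (0.0119 as edgeR's adjusted p). That call ended with library totals alone, at -0.28 (edgeR adjusted p = 0.0593), when DHR39 replicate 1 was left out, at -0.36 (0.0515), and when DHR39 replicate 2 was, at -0.41 (0.0508). DHR39 replicate 3 and control replicate 5, which share a replicate name, stood apart in heat shock genes: the median of 15 such genes lay at 1.79 and 2.15 relative to the control mean on the log2(CPM + 1) scale, against -0.88 to 0.32 in the other libraries. Without both of them Cyp4g1 and eloF were again the called genes among the 8. The 3 yolk protein genes, which are expressed in females, summed to 8.87 to 14.3 CPM in DHR39 and 10.6 to 16.8 CPM in controls. The male-specific RNAs roX1 and roX2 summed to 584 to 622 CPM in DHR39 and 623 to 703 CPM in controls. All tissues of the fly add to these values, and in whole flies fewer cells of a type and less RNA per cell cannot be told apart.

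In DHR39 flies RNA of Cyp4g1, the P450 of the last step, fell to 0.482 of the control level (95% interval 0.412 to 0.565). RNA of its electron donor Cpr did not pass the test, at 1.09 of control (0.943 to 1.26). The fatty acid synthesis genes ACC, FASN1 and FASN2, the desaturase gene Desat1 and the elongase gene bond had means at 0.715 to 0.836 of control, and none of these 5 passed. The weakly expressed elongase gene eloF rose to 2.83 times control (1.52 to 5.26). In all, 1 of the 8 genes was called lower and 1 higher, against 10.7% of all tested genes called lower and 6.58% higher, 17.3% together. With replicates paired by name as a block 3 of the 8 were lower and none was higher, against 11.2% and 7.90% of all tested genes. The median log2 fold change was -0.31 for the 8 genes and -0.004 for all tested genes. With library totals alone as the scale these medians were -0.16 and 0.14. Each of the 8 genes kept its direction under that and the 3 other scales tried, but with totals alone the log2 fold change was -0.11 for Desat1, -0.12 for bond, -0.21 for FASN2 and 0.27 for Cpr, over 1.5 times away from the values given below.

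**Figure D1:**
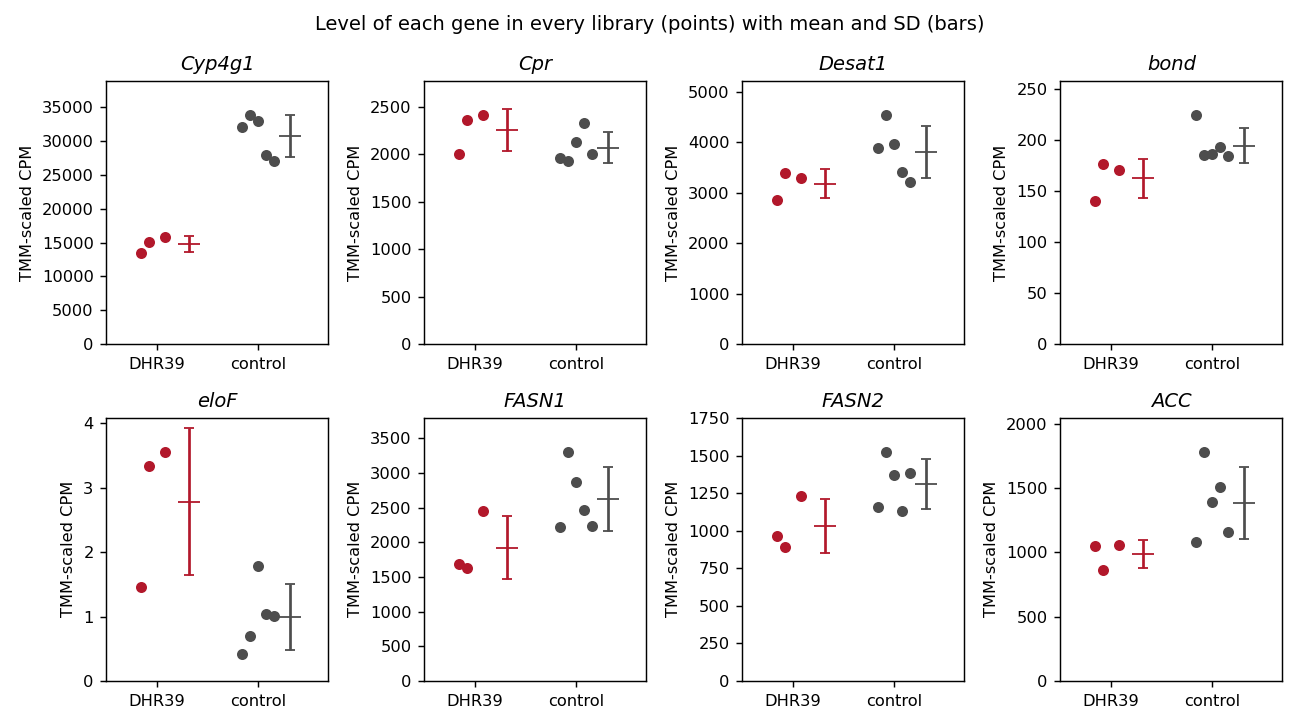
CPM (TMM-scaled, linear axes from 0) of the 8 genes in each DHR39 library (red, n = 3) and each control library (grey, n = 5), with mean and SD beside the points. Cyp4g1 lies between 13479 and 15848 in DHR39 and between 27009 and 33778 in controls, while the points of Cpr, Desat1, eloF, FASN1 and FASN2 overlap between the groups.

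The pathway begins with acetyl-CoA carboxylase, encoded by ACC (FBgn0033246, chromosome 2R from 7974115 to 7991862, minus strand, Ensembl 115 annotation of the BDGP6 assembly), which makes malonyl-CoA, the donor of carbon pairs. ACC was at 863, 1059 and 1046 CPM in the DHR39 libraries and at 1779, 1506, 1081, 1161 and 1393 CPM in the control libraries. The groups did not overlap, but the lowest controls, replicates 3 and 4, lay close to the highest mutant. Its log2 fold change of -0.48 ± 0.15 lay just outside the threshold (edgeR adjusted p = 0.0501). The call was made without control replicate 3, at -0.56 (edgeR adjusted p = 0.0176), and without control replicate 4, at -0.54 (0.0347). It was also made with DESeq2 (0.0148), a robust fit (0.0430) and no filter on low counts (0.0487), in a range of adjusted p of 0.0148 to 0.175 over the alternatives. With replicates paired by name as a block the log2 fold change was -0.29, over 1.5 times smaller, with no call (edgeR adjusted p = 0.0655).

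Fatty acid synthases join malonyl-CoA units into long chains. FASN1 (FBgn0283427, 2L from 3056598 to 3068177, plus strand) is the broadly expressed enzyme of the fat body, and FASN2 (FBgn0042627, 2L from 3043947 to 3056143, plus strand) is known from oenocytes. The genes are neighbours on the same strand, and their sequences are related, so reads may be split between them and their separate values are uncertain to that extent. FASN1 was at 1632, 2444 and 1682 CPM in the DHR39 libraries and at 3300, 2461, 2223, 2239 and 2873 CPM in controls. Here DHR39 replicate 2 stood above control replicates 3 and 4, and the other mutants stood below every control. On the log2 scale the FASN1 difference was -0.45 ± 0.16 (edgeR adjusted p = 0.0878, and 0.0421 with DESeq2), and without DHR39 replicate 2 it was -0.66 (0.0204).

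FASN2 followed the same order of mutant libraries at a lower level, with 895, 1233 and 965 CPM in DHR39 and 1525, 1130, 1157, 1383 and 1370 CPM in controls. The groups overlapped through DHR39 replicate 2 alone. On the log2 scale the FASN2 difference was -0.35 ± 0.13 (edgeR adjusted p = 0.0940). It passed without DHR39 replicate 2, at -0.50 (edgeR adjusted p = 0.0319), and with replicates paired by name as a block, at -0.35 (0.0368).

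Desat1 (FBgn0086687, 3R from 12439600 to 12447616, plus strand) encodes the desaturase that places the first double bond in fatty acyl chains, also those of unsaturated pheromones. It was the second most abundant of the 8 genes, with 3386, 3301 and 2860 CPM in DHR39 and 4537, 3422, 3892, 3209 and 3975 CPM in controls. Control replicate 4 lay within the mutant range, and the other controls lay above it. For Desat1 the log2 fold change was -0.26 ± 0.12 (edgeR adjusted p = 0.174), with a 95% interval of -0.52 to -0.0020. No alternative made the call, with adjusted p from 0.0984 to 0.625.

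Both elongases on the list act on very long chains. The enzyme of bond (FBgn0260942, 3R from 22550680 to 22556494, plus strand) is known in males, in sperm development and in making a long-chain pheromone of the ejaculatory bulb. The bond transcript was at 176, 170 and 141 CPM in DHR39 and at 185, 193, 224, 184 and 187 CPM in controls, without overlap. For bond the log2 fold change was -0.26 ± 0.10 (edgeR adjusted p = 0.109), and with the block on replicate names it was -0.29 (0.0440). It was -0.17 without DHR39 replicate 3 (edgeR adjusted p = 0.426), the lowest mutant. An annotated antisense RNA, CR44062, overlaps bond exons, and no label or note used here states whether counting used the strand. That RNA itself had 19 counts over the 3 DHR39 and 32 over the 5 control libraries, against 9046 and 16957 for bond.

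The enzyme of eloF (FBgn0037762, 3R from 9814161 to 9815158, plus strand) is known as the female-biased elongase of long-chain dienes. The eloF transcript was close to the limit of detection, with 58, 75 and 25 counts in the DHR39 libraries and 12, 18, 7, 19 and 30 counts in the controls. Scaled, this was 3.34, 3.55 and 1.47 CPM in DHR39 and 0.692, 1.03, 0.416, 1.003 and 1.78 CPM in controls. Only DHR39 replicates 1 and 2 stood above all controls, and DHR39 replicate 3 was below control replicate 5, with which it shares a replicate name. The eloF change was 1.50 ± 0.41 on the log2 scale (edgeR adjusted p = 0.0254). The call ended without DHR39 replicate 1, at 1.36 (edgeR adjusted p = 0.0927), without DHR39 replicate 2, at 1.28 (0.120), without control replicate 1, at 1.40 (0.0533), and with replicates paired by name, at 1.40 (0.0986).

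Cyp4g1 (FBgn0010019, X from 467057 to 469335, minus strand, a single exon) encodes the oenocyte P450 that turns aldehydes into hydrocarbons. It was at 15143, 15848 and 13479 CPM in the DHR39 libraries and at 33778, 27983, 32016, 27009 and 32951 CPM in controls. The highest mutant was far below the lowest control. The log2 fold change was -1.05 ± 0.10 (edgeR adjusted p = 2.6e-05), and over 18 alternatives it lay between -1.10 and -0.91 with an adjusted p of at most 0.0016. The counts of Cyp4g1 were 229865 to 334381 in DHR39 and 487698 to 585359 in controls. It remained the most abundant gene of each library by counts and also by counts per kilobase of exon, although its lead over the next gene, the elongation factor gene eEF1alpha1, was 1.83 to 2.24 times in DHR39 and 3.61 to 4.62 times in controls.

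Cpr (FBgn0015623, 2L from 6338836 to 6346280, plus strand) encodes cytochrome P450 reductase, which passes electrons from NADPH to Cyp4g1 and to other microsomal P450s. It was at 2355, 2409 and 2003 CPM in DHR39 and at 1933, 2332, 1961, 1999 and 2126 CPM in controls. The groups overlapped, DHR39 replicate 3 lying among the controls. The log2 fold change was 0.12 ± 0.096 (edgeR adjusted p = 0.460), with a 95% interval of -0.085 to 0.33, and it was 0.074 without DHR39 replicate 2 and 0.20 without DHR39 replicate 3.

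**Figure D2:**
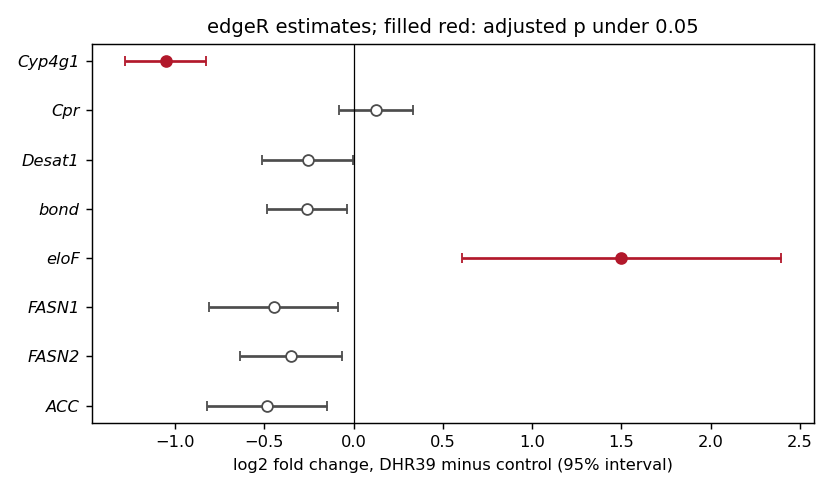
Log2 fold change, DHR39 minus control, of the 8 genes with 95% intervals from edgeR's quasi-likelihood fit on 3 DHR39 and 5 control libraries, filled red where the adjusted p over all tested genes was under 0.05. Cyp4g1 at -1.05 and eloF at 1.50 are filled, and Cpr is the gene whose interval spans 0.

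Groups without overlap were seen for 3 of the 8 genes, ACC, bond and Cyp4g1, all lower in DHR39. Among all tested genes 23.2% showed no overlap, 13.4% with DHR39 lower. Within the mutants, DHR39 replicate 2 was the highest library for 6 of the 8 genes and DHR39 replicate 3 the lowest for 5. Within the controls, replicate 1 was the highest for 5 genes, namely Cyp4g1, Desat1, FASN1, FASN2 and ACC. The 8 genes come from the same libraries and are not independent of each other.

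Levels can be compared between genes only per length. On the scale of CPM per kilobase of annotated exon, the mean level in DHR39 and in controls was 6504 and 13492 for Cyp4g1, 1279 and 1530 for Desat1, and 674 and 619 for Cpr. The synthases and ACC were lower on this scale, with FASN1 at 219 and 300, FASN2 at 126 and 161, and ACC at 109 and 153. The elongases were lowest, bond at 84.4 and 101 and eloF at 2.99 and 1.06. The order of the 8 genes by mean was the same in both groups. The ranges of FASN2 and ACC overlapped within each group, so the order of this pair is not beyond its spread. The ranges of the other neighbours in this order did not overlap in either group.

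The 8 genes together took 2.59% ± 0.236 of all counts in DHR39 libraries and 4.05% ± 0.341 in control libraries. Most of that difference was Cyp4g1, with 1.58% ± 0.138 of counts in DHR39 and 2.96% ± 0.265 in controls. The other 7 genes summed to 1.02% ± 0.104 in DHR39 and 1.10% ± 0.101 in controls, ranges that overlapped. Cyp4g1 made up 60.9% ± 1.03 of the counts of the 8 genes in DHR39 and 73.0% ± 1.45 in controls.

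The ratio of 2 genes within a library does not depend on how libraries are scaled, and 5 such ratios of counts were compared. Cpr stood to Cyp4g1 at 0.156, 0.152 and 0.149 in the DHR39 libraries and at 0.0572, 0.0833, 0.0612, 0.0740 and 0.0645 in the controls. This ratio was tighter within DHR39 than within controls and did not overlap between them. It was higher by 1.17 on the log2 scale in DHR39 (two-sided exact permutation p = 0.0179, the smallest that 56 divisions of 8 libraries allow, and 0.0446 adjusted over the 5 ratios). The ratio of bond to eloF, given below, reached the same p. Neither ratio would have passed adjustment had the other not reached that p too. Per kilobase of exon, 9.44 to 9.87 Cyp4g1 reads were counted for each Cpr read in DHR39, and 17.6 to 25.6 in controls.

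The ratios within fatty acid synthesis did not pass. FASN2 to FASN1 was 0.542 ± 0.0350 in DHR39 and 0.507 ± 0.0665 in controls (exact permutation p = 0.411, adjusted 0.513). ACC to FASN1 was 0.528 ± 0.0943 in DHR39 and 0.528 ± 0.0521 in controls (exact permutation p = 0.946, adjusted 0.946). Desat1 to FASN1 was 1.71 ± 0.362 in DHR39 and 1.47 ± 0.160 in controls (exact permutation p = 0.375, adjusted 0.513). The elongase ratio, bond to eloF, was 52.7, 47.9 and 95.8 in DHR39 and 268, 187, 538, 183 and 105 in controls, without overlap (exact permutation p = 0.0179, adjusted 0.0446), and rests on the few counts of eloF.

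**Figure D3:**
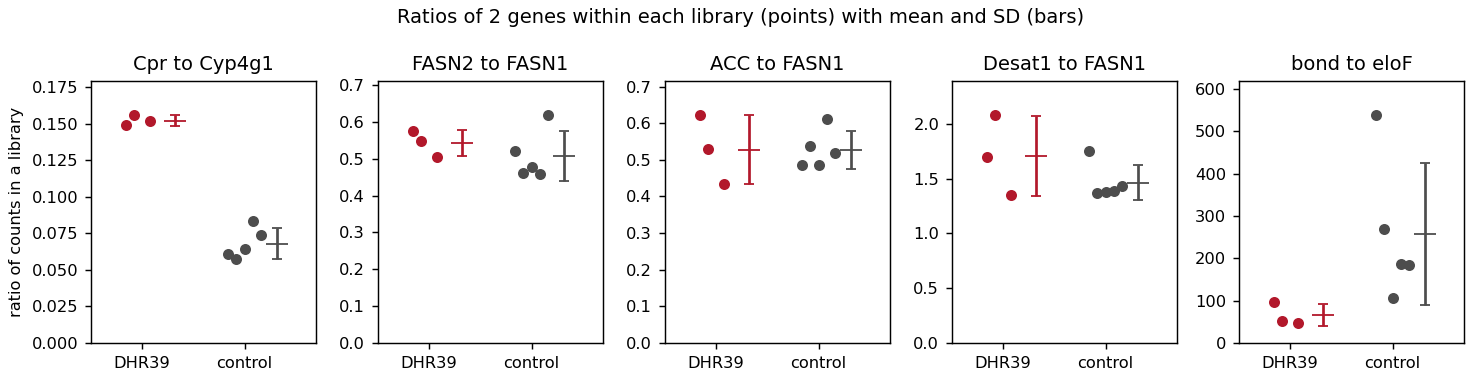
Ratios of counts of 2 genes within each library (linear axes from 0), DHR39 in red (n = 3) and control in grey (n = 5), with mean and SD. Cpr to Cyp4g1 lies at 0.149 to 0.156 in DHR39 and at 0.0572 to 0.0833 in controls, while the ratios of FASN2, ACC and Desat1 to FASN1 overlap.

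Other genes of the pathway were followed in 6 lists with 74 tested genes, of which 25 were lower and 3 higher in DHR39 and 46 did not pass, with a median log2 fold change of -0.30. Over all tested genes 10.7% were lower and 6.58% higher. With library totals alone 18 of the 74 were lower and 8 higher, against 7.70% and 14.8% of all tested genes. Without DHR39 replicate 3 and control replicate 5, which stood apart in heat shock genes, 13 of the 74 were lower and 2 higher, against 6.22% and 3.12% of all tested genes, and 1274 genes were called in all.

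Elongases and the enzymes that complete the elongation cycle were lower in 12 of 20 tested genes, none was higher and 8 did not pass, with a median log2 fold change of -0.52. Among all tested genes 10.7% were lower and 6.58% higher. With library totals alone 10 were lower and 1 higher, against 7.70% and 14.8% of all tested genes, and the median of the list was -0.37. CG6746, a hydroxyacyl-CoA dehydratase gene, was at 121 ± 3.38 CPM in DHR39 and 230 ± 24.1 CPM in controls, and fell by 0.92 ± 0.099 (edgeR adjusted p = 4.8e-05). The ketoacyl-CoA reductase gene spidey fell by 0.83 ± 0.10, to 207 ± 16.7 CPM in DHR39, against 369 ± 37.6 CPM in controls. Among the elongase genes, CG30008 fell by 1.27 ± 0.15 and CG16904 fell by 0.95 ± 0.12. The abundant elongase genes that did not pass were CG2781, at a log2 fold change of -0.082 ± 0.10, and CG33110, at 0.32 ± 0.12 (edgeR adjusted p = 0.0880), which was called higher in the blocked fit (0.0150) under library totals alone (0.0125) and without control replicate 1 (0.0141).

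Close to eloF lies a run of elongase genes in which the direction was opposite. CG16904, on the other strand, whose nearer end lies 1767 bases from the start of eloF, was at 310 ± 30.0 CPM in DHR39 and 600 ± 74.8 CPM in controls. The next genes, CG9459 and CG9458, were singled out after their values were seen. CG9459 fell by 0.55 ± 0.12, to 41.3 ± 7.99 CPM in DHR39, against 60.3 ± 3.02 CPM in controls, and CG9458 fell by 0.50 ± 0.099, to 91.0 ± 12.7 CPM in DHR39, against 128 ± 6.23 CPM in controls. Without DHR39 replicate 3 and control replicate 5 both calls ended, at -0.44 (edgeR adjusted p = 0.0859) for CG9459 and -0.41 (0.0507) for CG9458. CG8534, on the other side of eloF, had 16 counts over the DHR39 and 68 over the control libraries and was not tested. These paralogs share sequence, so the few eloF reads cannot be taken as unique to it with certainty.

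**Figure D4:**
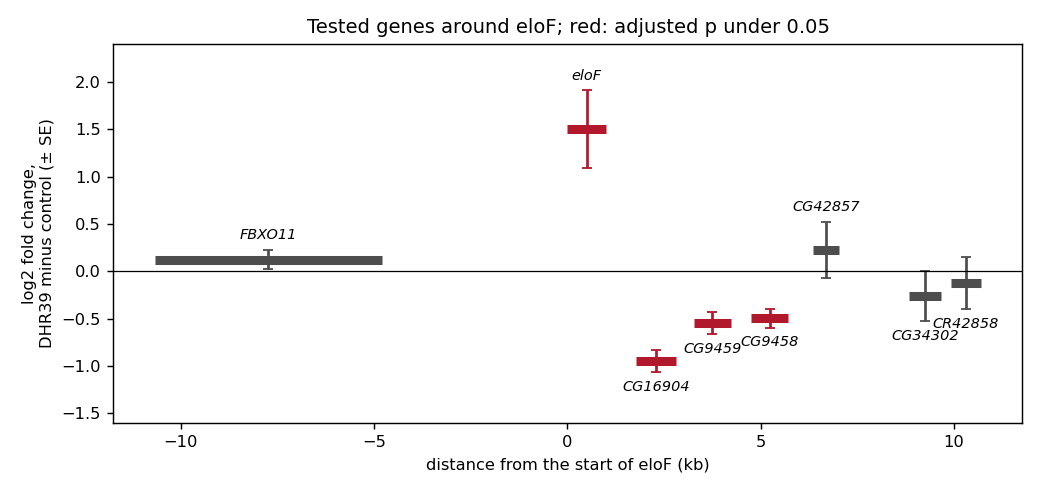
Log2 fold change, DHR39 minus control ± SE, of tested genes by distance in kilobases from the start of eloF, the length of each bar giving the length of the gene and red marking an adjusted p under 0.05. The eloF bar stands at 1.50, and those of CG16904, CG9459 and CG9458 stand at -0.95, -0.55 and -0.50.

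Substrate supply and lipogenic control comprised 17 tested genes, of which 7 were lower, 1 higher and 9 did not pass. Among all tested genes 10.7% were lower and 6.58% higher. With library totals alone 4 were lower and 3 higher, against 7.70% and 14.8% of all tested genes. With the block 5 were lower and 2 higher, against 11.2% and 7.90%. The number lower was 3 when DHR39 replicate 1 was left out, against 1252 of all 13678 genes tested there. It was 4 without DHR39 replicate 2 (1079 of 13659) and 4 without DHR39 replicate 3 (1013 of 13677). Without DHR39 replicate 3 and control replicate 5 together it was 2, against 6.22% of all tested genes. Exons of Zw, ATPCL, CG6746, SREBP and apolpp overlap a gene on the other strand, and those of FarO and Cyt-b5 one on the same strand, so their counts are uncertain to that extent. The genes that fell include Zw, the entry enzyme of the pentose phosphate pathway, which supplies NADPH, at a log2 fold change of -0.58 ± 0.094. The synthase paralog FASN3 was at 396 ± 33.5 CPM in DHR39 and 746 ± 198 CPM in controls and fell by 0.91 ± 0.19 (edgeR adjusted p = 0.00567). ATPCL, the citrate lyase that yields cytosolic acetyl-CoA, fell by 0.76 ± 0.16, to 420 ± 49.7 CPM in DHR39, against 713 ± 153 CPM in controls, a call that ended without DHR39 replicate 3 and control replicate 5 together (edgeR adjusted p = 0.0600). The gene that rose was SCAP, whose protein escorts the lipogenic factor SREBP, at 70.3 ± 5.40 CPM in DHR39 and 44.6 ± 4.42 CPM in controls (log2 fold change 0.66 ± 0.10, edgeR adjusted p = 7.3e-04). SREBP itself did not pass, at 0.26 ± 0.12 (edgeR adjusted p = 0.170), but was called with the block (0.0279) and with library totals alone (0.0209). The malic enzyme gene Men-b did not pass, at -0.48 ± 0.18 (0.0969 as edgeR's adjusted p). It was called lower with DESeq2 (adjusted p = 0.0447) and without control replicate 3, at -0.56 (edgeR adjusted p = 0.0450), and stood at -0.18 in the blocked fit (0.179).

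Of 5 tested desaturase genes other than Desat1, 2 were lower, 2 higher and 1 did not pass, against 10.7% lower and 6.58% higher among all tested genes. When DHR39 replicate 3 was left out 1 was lower, against 1013 of all 13677 genes tested there. Without that library and control replicate 5 none was lower and 1 was higher, against 6.22% and 3.12% of all tested genes. CG15531 fell by 0.53 ± 0.11, to 210 ± 25.2 CPM in DHR39, against 303 ± 33.2 CPM in controls, a call that ended without DHR39 replicate 3 and control replicate 5 together (edgeR adjusted p = 0.0921). CG8630 fell by 0.46 ± 0.10, a call that ended with library totals alone (edgeR adjusted p = 0.0532), without DHR39 replicate 3 (0.0501), and without that library and control replicate 5 (0.0884). The gene ifc, whose product acts on sphingolipids and not on hydrocarbon precursors, rose by 0.61 ± 0.10, to 182 ± 5.15 CPM in DHR39, against 119 ± 15.3 CPM in controls. CG9743 rose by 0.42 ± 0.13 (edgeR adjusted p = 0.0476), and lost the call in each fit without 1 of 6 libraries, control replicates 1, 3, 4 and 5 and DHR39 replicates 1 and 2 (0.0636 to 0.191). CG9747 did not pass, at -0.23 ± 0.19. The female desaturase gene Fad2 was not analysed here.

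Fatty acyl-CoA reductases make the alcohols and aldehydes that precede hydrocarbons and waxes. Of 14 tested, 2 were lower, none was higher and 12 did not pass. With library totals alone 2 were higher and 2 lower, against 14.8% and 7.70% of all tested genes. With the block none was higher and 4 were lower, against 7.90% and 11.2% of all tested genes. DESeq2 also called none higher and 4 lower, against 1040 and 1637 of all 13506 tested genes. In the TMM-scaled edgeR fit without a block, the share lower was near the 10.7% of all tested genes. The share higher with library totals alone was near the 14.8% of all tested genes at that scale. The gene CG13091 fell by 1.54 ± 0.21, to 279 ± 91.3 CPM in DHR39, against 812 ± 165 CPM in controls (edgeR adjusted p = 3.4e-04). FarO, the reductase known from oenocytes, was at 38.0 to 44.2 CPM in DHR39 and 54.8 to 81.9 CPM in controls and fell by 0.84 ± 0.13 (edgeR adjusted p = 7.8e-04). The abundant genes CG5065, at 0.096 ± 0.10, and wat, at 0.16 ± 0.097, did not pass, though wat was called higher with library totals alone (edgeR adjusted p = 0.0315) and with totals that leave out Cyp4g1 (0.0455).

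Among 7 tested genes, 6 of electron transfer and the paralog Cyp4g15, none was called by edgeR, under the other scales or with DESeq2 or voom, and 2 had an unadjusted p under 0.05. Cyt-b5, the cytochrome that serves desaturases, stood at -0.30 ± 0.12 on the log2 scale (edgeR adjusted p = 0.108, and 0.0367 without DHR39 replicate 1), and Cyt-b5-r, a cytochrome b5-related gene, stood at -0.33 ± 0.21 (0.355). In fatty acid activation and carriage 2 of 11 were lower, none was higher and 9 did not pass, against 10.7% of all tested genes that were lower. The number lower was 4 of 10 without control replicate 3, against 1458 of all 13439 genes tested there. It was 3 of 11 without control replicate 5 (1249 of 13478) and 3 of 11 with DESeq2 (1637 of 13506). It was 1 when any 1 of control replicates 1, 2 and 4 or DHR39 replicates 1, 2 and 3 was left out. In those fits 1013 to 1344 of all 13409 to 13678 tested genes were lower. The number was also 1 with the block and with library totals alone, against 11.2% and 7.70% of all tested genes. Dbi, an acyl-CoA binding protein gene, fell by 0.80 ± 0.14, to 205 ± 8.82 CPM in DHR39, against 356 ± 66.7 CPM in controls. Acsl, a long-chain acyl-CoA synthetase gene, fell by 0.33 ± 0.10 (edgeR adjusted p = 0.0426), and lost that call with library totals alone (0.198), with the block (0.129) and in each fit without 1 of 6 libraries, control replicates 1, 2 and 4 and DHR39 replicates 1, 2 and 3 (0.0596 to 0.168). Fatp, at -0.11 ± 0.12, and bgm, at -0.10 ± 0.18, did not pass.

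**Figure D5:**
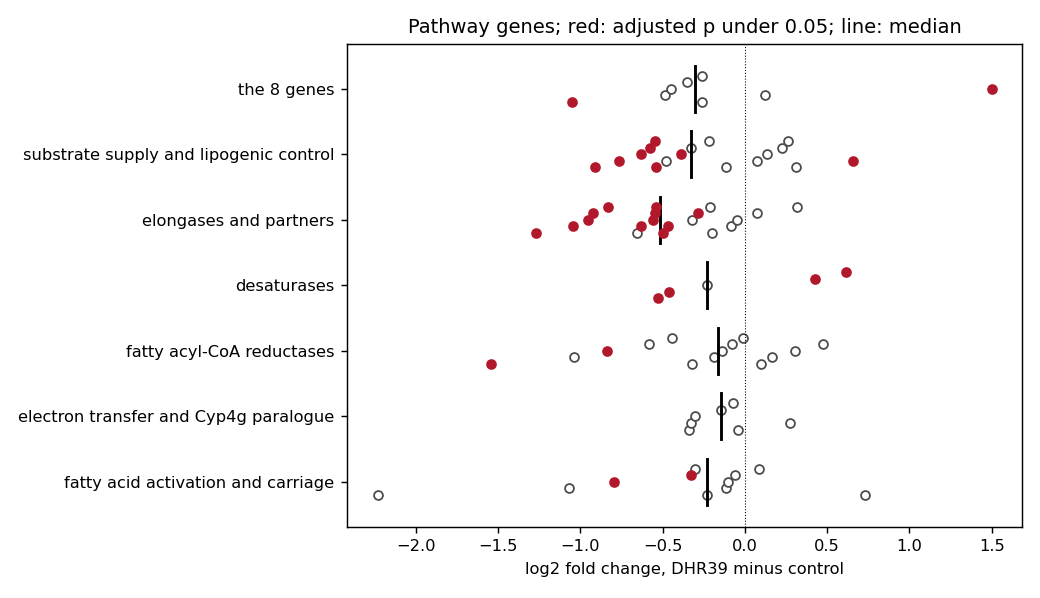
Log2 fold change, DHR39 minus control, of each tested gene in the 8 named genes and in 6 pathway lists, red where the adjusted p was under 0.05, with the median as a line. The median of the elongases and partners lies at -0.52, and 12 of its 20 genes are red, all below 0.

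Markers of cell types that can hold this pathway were set beside these results. The shares to compare are 10.7% lower and 6.58% higher among all tested genes. Of 5 tested oenocyte markers, the enzyme genes spidey and FarO fell, while the transcription factor genes svp, Hnf4 and salm did not pass, at log2 fold changes of -0.072 ± 0.13, -0.047 ± 0.099 and -0.18 ± 0.13. The list summed to 484 to 513 CPM in DHR39 and 653 to 748 CPM in controls, and spidey is also a member of the elongase list and FarO of the reductase list. Of 5 tested fat body markers 3 were lower, with a summed level of all 7 markers of 3569 to 4338 CPM in DHR39 and 5114 to 7312 CPM in controls. The lipoprotein gene apolpp, the largest of these, was at 3159 ± 343 CPM in DHR39 and 5161 ± 855 CPM in controls. Lsp2, also among the 3 lower, was at 6.85 ± 5.92 CPM in DHR39 and 125 ± 145 CPM in controls (edgeR adjusted p = 0.0442). Its control SD exceeded its control mean. The fat body markers Apoltp and Mtp did not pass. All 6 accessory gland markers were lower, summing to 630 to 844 CPM in DHR39 and 3263 to 6147 CPM in controls, and 3 of 5 midgut markers were lower, at 2486 to 3841 CPM in DHR39 and 3547 to 4911 CPM in controls. Of 5 testis markers 1 was higher, with sums of 3471 to 3999 CPM in DHR39 and 3292 to 4399 CPM in controls. No marker was at 0 in all libraries, and the part of these cell types in the values of the 8 genes was not tested.

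The genes whose profile over the 8 libraries was closest to that of Cyp4g1 were sought among 5645 other genes with a mean of at least 5 on the log2 CPM scale. The measure was the root mean square difference of log2 CPM, each gene centred on its control mean. The closest were CG5402, at 0.11, CG6149, at 0.12, the serpin gene Spn42Dd, at 0.12, and CG8560, at 0.13. CG5402 was at 90.8 ± 11.9 CPM in DHR39 and 175 ± 11.5 CPM in controls. Of the 8 genes, FASN1 came nearest to Cyp4g1, at 0.41 and rank 353, followed by ACC, at 0.42 and rank 395, and Cpr was farthest among those compared, at 0.74 and rank 4263. The measure contains the difference between DHR39 and controls, and the closest genes named had log2 fold changes from -1.188 to -0.945. Closeness therefore largely restates that difference and does not show that a gene varies together with Cyp4g1.

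The authors' deposited table for DHR39 against w1118 calls 4 of the 8 genes. In the authors' deposited table Cyp4g1 has a log2 fold change of -1.02, FASN1 -0.42 and ACC -0.45, the last 2 with adjusted p of 0.0223 and 0.0117. For eloF the authors' deposited table gives 1.01 (adjusted p = 0.00662). Mean signal in the authors' deposited table differs by over 10% from that of these 8 libraries for 1 of the 8 genes and for 2447 genes in all, and the table therefore draws on more than these libraries.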

How the data were processed

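Raw counts per gene in 8 libraries were the starting point, as deposited by the authors, one column of whole numbers per library. The tools named in the submitters' processing notes are STAR 2.6.1b, featureCounts 1.6.3, cutadapt 1.16 and DESeq2, the last in versions 1.22.2 and 1.20.0, and the builds are BDGP6 and dm6. The strand setting of the counting is not given there. The deposited comparison table holds the authors' log2 fold changes, p-values and mean scaled signal, and the deposited sample sheet a size factor, the ratio by which the authors scaled each library, and replicate names.

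Genes were filtered with filterByExpr, scaled by TMM and tested with edgeR 4.0.16 in R 4.3.3 over all 8 libraries (biological coefficient of variation 14.9%). Each SE equals the absolute log2 fold change divided by the square root of F. DESeq2 1.42.0, limma 3.58.1, other scales and filters and leaving out each library were alternatives. Positions and exon lengths came from Ensembl 115. Members and lists were chosen with earlier results of these data known. Named from each list were up to 4 called genes by p and up to 2 not passing of highest CPM, with exceptions stated. Control group outliers were sought with Dixon's test.

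Counts of replicates differed beyond sampling noise, the chi-square per degree of freedom being 17.0 to 42.9 within groups. Replicate names in the deposited sheet join DHR39 replicates 1, 2 and 3 to control replicates 3, 4 and 5. Deviations from group means correlated across genes, which are not independent, at 0.266, 0.145 and 0.250 within these pairs, each over 0.1. The names thus pair 6 of the 8 libraries. The SEs, p-values and calls reported are nevertheless from the fit without a block, and the exact permutations of ratios ignore the pairs. A fit with a block on the names, in which control replicates 1 and 2 have no partner, is given beside each result whose call it changes. The margin was narrow for DHR39 replicate 2 with control replicate 4, at 0.145, since 3 other combinations reached 0.131 to 0.143. The pairs at 0.266 and 0.250 lay well above every combination of unlike names.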

Additional observations from a re-analysis of the deposited data

Results flagged for a closer look

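Of 44 control groups of 5 libraries that were checked, 4 held a library whose gap to the nearest other exceeded Dixon's critical value of 0.71 of the range; chance flags about 5 in 100 groups. For bond, control replicate 3 stood at 224 CPM, against 184 to 193 CPM in the other controls, and without it the log2 fold change of bond was -0.21 (edgeR adjusted p = 0.163). For the desaturase gene CG8630, control replicate 3 stood at 243 CPM. For the ratio of Desat1 to FASN1, the same library stood at 1.75, against 1.37 to 1.43 in the other controls. For the elongase gene CG2781, control replicate 1 stood at 164 CPM.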

How the results depend on the processing

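The number of the 8 genes called was 2, against 17.3% of all 13506 tested genes. With DESeq2 it was 4 (adding ACC and FASN1), against 2677 of all 13506 tested genes. When a library was left out it was 1 to 3, against 1566 to 2340 genes in all. With replicates paired as a block 3 of the 8 were called, with bond and FASN2 added and eloF lost, against 19.1% of all tested genes. Among the other named genes the block gained CG33110 and SREBP and lost Acsl. Called genes numbered 2333 in all, 2580 with the block, 1566 to 2340 without 1 library, and 1274 without the pair that stands apart in heat shock genes, chosen after seeing the data; genes of the 6 lists numbered 28, against 21 to 31 without 1 library and 15 without that pair. By scale, 889 genes were higher and 1444 lower, against 1997 and 1040 with library totals alone, which leaves the median log2 fold change at 0.14. The Cpr to Cyp4g1 difference of 1.17 ranged from 1.11 to 1.25 without 1 library and that of bond to eloF, -1.82, from -2.13 to -1.50, but with 35 or 21 divisions of the libraries neither passed after adjustment (exact permutation p adjusted over the 5 ratios, 0.0714 to 0.238). The smallest unadjusted p is 0.0286 with 35 divisions and 0.0476 with 21. After adjustment neither ratio could pass unless more of the 5 ratios reached that floor. The loss of these calls therefore does not bear on how stable the differences are. ACC to FASN1, at -0.011, lay between -0.137 and 0.124 without 1 library (0.044 without control replicate 2 and 0.124 without DHR39 replicate 2) and at 0.074 within the pairs of the block. The summed share of the 8 genes moved by less than the spread of controls in each alternative.

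Among genes that did not pass, the sign turned for CG2781 (0.062 with totals alone, with a lowest value of -0.144 without the heat shock pair, 0.013 without the 50 most abundant genes, 0.041 without Cyp4g1 and 0.011 without DHR39 replicate 1), Fatp (0.033, 0.012 without Cyp4g1 and 0.034 with the block), bgm (0.042, with a lowest value of -0.381 without DHR39 replicate 3, 0.021 without Cyp4g1, 0.038 without DHR39 replicate 2 and 0.008 without control replicate 5) and CG9747 (0.009 with the block). The cause of these changes was not tested. Depth limits eloF, with 7 to 75 counts per library.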
